A study of Homo sapiens with 4 samples.

Results

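Metallothioneins are small cysteine-rich proteins that bind zinc and copper. Of the 43305 gene names on the arrays, 10 were taken here: MT1A, MT1B, MT1E, MT1F, MT1G, MT1H, MT1L, MT1M, MT1X and MT2A, each with all of its probes, 13 in all, found by the gene name that the array design gives. The RNA came from the human head and neck squamous cell carcinoma (HNSCC) lines HN4 and HN30 and from HN4/DDP and HN30/DDP, their cisplatin-resistant sublines, which were derived by raising the dose of cisplatin in steps. The parental lines grew in DMEM with serum. Both resistant lines were kept in 20 μM cisplatin, for 48 h by the sample labels, so long-term resistance and the drug still present cannot be told apart. Each of the 4 lines was measured on 1 one-colour Agilent array, and the comparison asks how a resistant line differs from its parent.

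A level is the log2 of a probe's processed signal minus the 75th percentile of its array, and a difference is the level in the resistant line minus that in its parent. A difference of 1 is 2-fold. With 1 array per condition, no difference within a line has a replicate or a test, and precision is limited by that number. The scanner SD printed beside a difference comes from the error the scanner software gives for each spot and covers the array alone. More RNA per cell and more cells that make the RNA cannot be told apart. All 10 squamous epithelial markers examined were well above background on the HN4, HN4/DDP and HN30 arrays, among them TP63, SFN and DSP, and 9 of 10 were on the HN30/DDP array, where KRT6A was not.

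Metallothioneins hold metal ions in clusters of cysteine thiolates, buffer free zinc and copper, and can also bind platinum. Their genes are switched on by zinc, cadmium and copper through MTF1, a zinc-sensing transcription factor, and by glucocorticoids. MT2A and the MT1 genes lie side by side on human chromosome 16 and are very alike in sequence, which makes array probes for single members hard to design.

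The probes carry the limits of what follows, so those that bear on it are shown. In each set capitals mark the aligned positions at which the set differs, and the bases run 5′ to 3′ as the array design gives them. The MT1A probe (hg19 chr16:56673205-56673808, plus strand) has 60 bases that span 604 bases of the genome. It shares 46 aligned bases with the probe of MT1HL1, a related gene on chromosome 1 (hg19 chr1:237167555-237167614, minus strand), and differs from it at 4 of them.
MT1A: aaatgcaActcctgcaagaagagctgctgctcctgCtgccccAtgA
MT1HL1: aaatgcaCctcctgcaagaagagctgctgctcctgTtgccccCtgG

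The MT1HL1 probe overlaps in turn with an MT1B probe (hg19 chr16:56686489-56686548, plus strand) over 36 bases, of which 3 differ.
MT1HL1: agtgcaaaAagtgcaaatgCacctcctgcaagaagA
MT1B: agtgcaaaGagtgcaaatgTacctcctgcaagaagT

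Probes of MT1E (hg19 chr16:56660853-56660912), MT1L (hg19 chr16:56652580-56652639) and MT1B (hg19 chr16:56686948-56687007), all on the plus strand, share a stretch of which 30 bases are shown, with 6 differing positions.
MT1E: ctgctgtgcctgatgtGggAaCagCTctTc
MT1L: ctgctgtgcctgatgtGggGaCagACctGc
MT1B: ctgctgtgcctgatgtTggGaGagCCctGc

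MT1F (hg19 chr16:56693077-56693136), MT1X (hg19 chr16:56717962-56718021) and MT1H (hg19 chr16:56704902-56704961) have probes that align over all 60 bases, and the first 30 are shown.
MT1F: tgCcAggacaAcCTtTctCCcagatgTaaa
MT1X: tgCcAggacaGcTGtGctCTcagatgTaaa
MT1H: tgTcGggacaGcCCtGctGTcagatgAaaa

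Over the 60 bases, the MT1F and MT1X probes agreed at 49, the MT1F and MT1H probes at 46, and the MT1X and MT1H probes at 44. The array design itself lists more than 1 gene for 2 of the 13 member probes. The MT1A probe is listed for MT1A and MT1M, and an MT1E probe is listed for MT1E, MT1M and the pseudogene MT1JP. The longest run that the MT1A probe shares with another metallothionein probe without a mismatch was 27 bases, and for the MT2A and MT1G probes it was 10 bases. RNA of a neighbouring member can therefore add to the signal of a probe. How much of a signal came from cross-hybridization was not tested, and each gene name below stands for its probe.

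Of the 10 genes, 7 were well above background on all 4 arrays: MT1A, MT1B, MT1E, MT1F, MT1L, MT1X and MT2A. The probe of MT1G was so on the HN4/DDP array alone, and the probes named MT1H and MT1M on no array. The design also lists MT1M on the MT1A probe and on an MT1E probe, and MT1H on the MT1HL1 probe, so these genes are not shown to be silent. In HN4/DDP, 8 of the 10 member probes well above background on an array of that pair were lower than in HN4, as were 55.2% of all such probes. In HN30/DDP, 6 of 9 such probes were lower than in HN30, as were 46.5% of all.

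**Figure D1:**
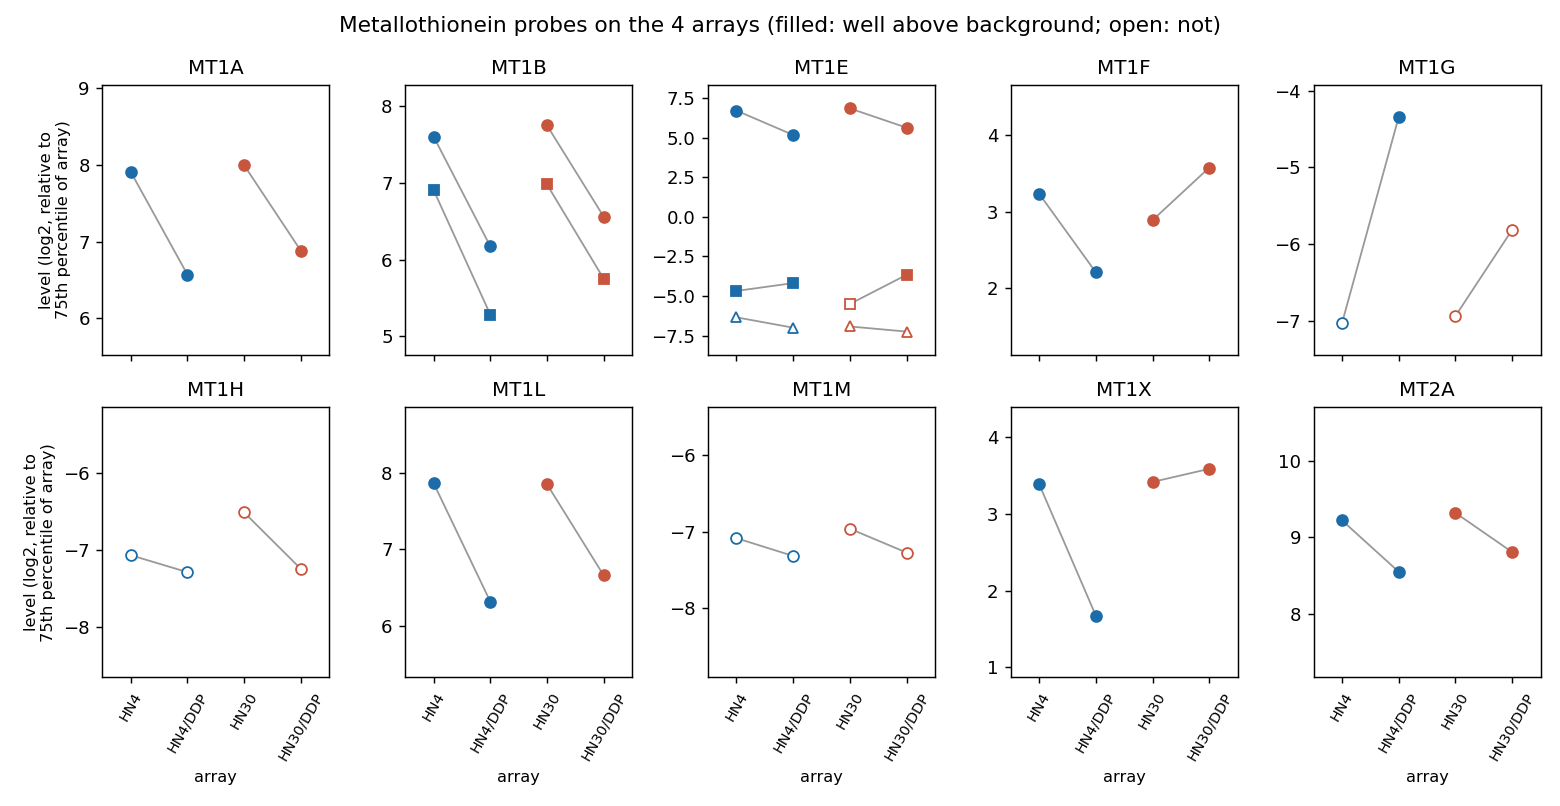
Level of each metallothionein probe on the 4 arrays (log2, relative to the array's 75th percentile), 1 panel per gene with its own axis; lines join a parental array to its resistant array, marker shapes separate probes of 1 gene, and open symbols are not well above background. MT1A went from 7.91 to 6.57 in HN4 and from 7.99 to 6.88 in HN30, while MT1F went from 3.23 to 2.21 in HN4 and from 2.89 to 3.58 in HN30, directions that held under every scaling tried.

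MT2A is the most widely expressed member of the family in human tissues. Its processed signal was 294778 in HN4 and 186053 in HN4/DDP, and 283888 in HN30 and 214894 in HN30/DDP, with no saturated spot on any array. Of the 58183 probes, it ranked 32 on the HN4 array, 133 on HN4/DDP, 36 on HN30 and 94 on HN30/DDP. The corresponding levels were 9.22, 8.55, 9.32 and 8.81. Both parental arrays were higher than both resistant arrays. The difference was -0.67 in HN4 (scanner SD 0.20, 1.59-fold lower) and -0.51 in HN30 (scanner SD 0.20, 1.43-fold lower). Over the alternatives it ran from -0.68 to -0.54 in HN4 and from -0.93, with median scaling, to -0.23, with the trend of the difference with brightness taken off, in HN30. HN4 and HN30 differed from each other by 0.10, which is under the scanner SD of 0.20.

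MT1A encodes a metal-binding protein of the MT1 class. Its level was 7.91 in HN4 and 6.57 in HN4/DDP, and 7.99 in HN30 and 6.88 in HN30/DDP. The signal left in the resistant line was 39.5% of the parental signal in HN4 and 46.2% in HN30, after scaling. The difference was -1.34 in HN4 (scanner SD 0.20, 2.53-fold lower) and -1.11 in HN30 (scanner SD 0.20, 2.16-fold lower). The probe is also listed for MT1M, whose own probe was not well above background on any array.

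MT1B, another MT1 gene, had 2 probes that lie apart in the gene and moved alike. The probe with the higher mean had a level of 7.61 in HN4 and 6.17 in HN4/DDP, and 7.75 in HN30 and 6.56 in HN30/DDP, and its differences were -1.43 in HN4 and -1.19 in HN30. The other MT1B probe had levels of 6.91, 5.29, 6.98 and 5.75 in the same order, with differences of -1.62 and -1.23. Both MT1B probes were lower on each resistant array than on either parental array, 2.70-fold and 3.08-fold in HN4 and 2.28-fold and 2.34-fold in HN30.

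MT1L is annotated by the array as a gene or pseudogene with a non-coding RNA. Its level was 7.86 in HN4 and 6.32 in HN4/DDP, and 7.85 in HN30 and 6.66 in HN30/DDP. It was 2.92-fold lower in HN4/DDP (difference -1.54, scanner SD 0.20) and 2.28-fold lower in HN30/DDP (difference -1.19, scanner SD 0.20). The parental arrays differed by -0.01.

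MT1E is the member whose bright and dim probes disagreed. The probe that represents the gene had a level of 6.70 in HN4 and 5.16 in HN4/DDP, and 6.84 in HN30 and 5.62 in HN30/DDP. It was 2.90-fold lower in HN4/DDP and 2.32-fold lower in HN30/DDP, with differences of -1.54 and -1.22. A further MT1E probe (hg19 chr16:56660883-56660942) overlaps the former by 30 bases, shown here, and differs from it there at 1 position.
MT1E probe 1: atgtgggaacagctcttctcccagatgtAa
MT1E probe 2: atgtgggaacagctcttctcccagatgtTa

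Probe 2, which is the one listed for MT1E, MT1M and MT1JP, went the other way. The level of probe 2 was -4.68 in HN4 and -4.18 in HN4/DDP, and -5.50 in HN30, where it was not well above background, and -3.66 in HN30/DDP. The difference was 0.49 in HN4 (scanner SD 0.38), and in HN30/DDP the probe was at least 1.95-fold higher. A last MT1E probe, designed to a predicted transcript variant, was not well above background on any array.

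MT1F and MT1X are MT1 genes that respond to zinc in many cell types, and they set HN30/DDP apart from HN4/DDP. The level of MT1F was 3.23 in HN4 and 2.21 in HN4/DDP, and 2.89 in HN30 and 3.58 in HN30/DDP. It was 2.03-fold lower in HN4/DDP (difference -1.02, scanner SD 0.20) and 1.61-fold higher in HN30/DDP (difference 0.69, scanner SD 0.20). The difference in HN30 was positive under every scaling tried, from 0.27 to 1.11. Of the 4 arrays, HN30/DDP had the highest MT1F level and HN4/DDP the lowest.

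The level of MT1X was 3.38 in HN4 and 1.67 in HN4/DDP, and 3.42 in HN30 and 3.59 in HN30/DDP. It was 3.28-fold lower in HN4/DDP (difference -1.71, scanner SD 0.20). In HN30/DDP its difference of 0.17 was within the scanner SD of 0.20, and with the arrays scaled by their median it turned to -0.25. HN4/DDP thus stood alone below the other arrays for MT1X. The MT1H probe, which shares 46 and 44 of 60 bases with the MT1F and MT1X probes, was not well above background on any of the 4 arrays.

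MT1G, a gene known to be silenced in several tumour types, was dim. Its level was -7.03 in HN4 and -4.34 in HN4/DDP, and -6.94 in HN30 and -5.81 in HN30/DDP. With the lowest signal well above background on the HN4 array in place of the parental signal, it was at least 1.34-fold higher in HN4/DDP. This bound leaves out spot error, and the scanner SD of the difference was 1.47 in the HN4 pair. In HN30 both arrays were dim and no fold is given. The levels of the probe named MT1H ran from -7.29 to -6.51 and those of the probe named MT1M from -7.32 to -6.96 over the 4 arrays, all not well above background.

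**Figure D2:**
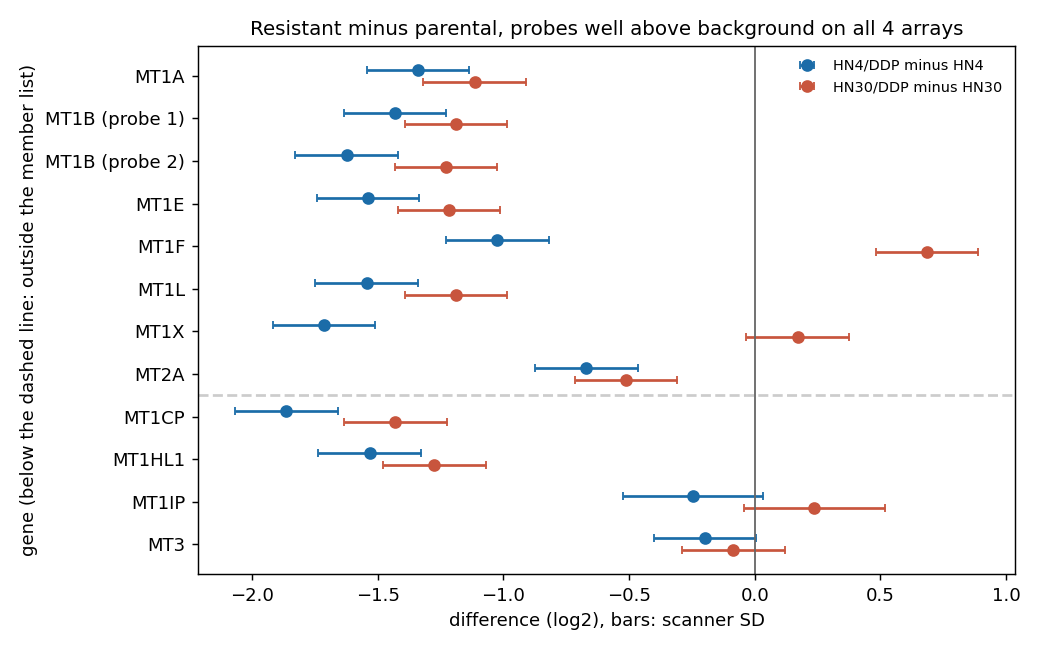
Difference of the resistant from the parental line (log2) for each metallothionein probe well above background on all 4 arrays, with bars for the scanner SD; genes below the dashed line are metallothioneins outside the member list. MT1A, MT1B, MT1E, MT1L and MT2A lie below 0 in both lines, as they did under every scaling tried, while MT1F lies at -1.02 in HN4 and 0.69 in HN30 and MT1X at -1.71 and 0.17, the last of which turned negative under median scaling.

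A log2 difference above 2 was met by 1 of the members in HN4/DDP, MT1G, which passed only through the array where it was high, against 3.61% of all genes well above background on an array of that pair. No member was lower by more than 2 in HN4/DDP (2.2% of all genes), and none was past 2 in HN30/DDP in either direction (8.37% of all genes higher, 2.75% lower). With a threshold of 1, 6 of 8 members were lower in HN4/DDP, against 8.65% of all genes, and 1 was higher, against 9.31%. The higher one was again MT1G, which entered through the HN4/DDP array alone and whose bound was only 1.34-fold. With normexp or with dim signals at the floor, 0 members were higher by more than 1, against 4.10% and 7.25% of all genes. In HN30/DDP, 4 of 7 members were lower by more than 1, against 13.3% of all genes, and 0 were higher, against 19.8%. With median scaling these counts were also 4 and 0, against 23.9% and 13.6% of all genes. With quantile normalization, the deposited table or the brightness trend taken off, the count of lower members in HN30/DDP was 0 of 7, against 13.5%, 13.4% and 10.4% of all genes, and 1 member, MT1F, was higher by more than 1, at 1.09, 1.09 and 1.11, against 17.7%, 17.8% and 21.3% of all genes. MT1A, MT1B, MT1E and MT1L were lower by more than 1 in both lines, 4 of the 7 members well above background on both parental arrays, against 2.23% of the 22858 genes that were, and 0 of the 7 under those same alternatives. The MT1B, MT1E and MT1L probes share sequence, as shown above, and whether these are separate measurements was not tested.

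The median difference was -1.38 over the 8 members well above background on an array of the HN4 pair, beside -0.08 over the 26853 genes that were. In HN30 it was -1.11 over 7 members, beside 0.06 over 28330 genes. Without MT1G, over the 7 members that both arrays of each line showed well above background, it was -1.43 in HN4 and -1.11 in HN30, beside -0.09 and -0.07 over all such genes. The size in HN30 depended on the scaling: median scaling gave -1.53 and moved the median of all genes by -0.42, while quantile normalization gave -0.68 and moved it by -0.12. The deposited table moved that median by -0.12 and the percentile over probes by -0.13, and in HN4 no scaling moved it by more than 0.1.

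Bright genes as a whole were lower on the HN30/DDP array, and 5 of the 10 members are bright: MT1A, MT1B, MT1E, MT1L and MT2A. The brightest genes moved less: the median difference in HN30 was -0.63 at mean levels of 5 to 6 and -0.09 at 9 to 10, where MT2A lay. Of the other genes well above background on all 4 arrays, 686 had a mean level between those of MT1E and MT2A. Their median difference was -0.12 in HN4, with quartiles of -0.34 and 0.07, and -0.29 in HN30, with quartiles of -0.91 and 0.00. In HN4, 4.08% of them were lower by more than 1 and in HN30 21.1%, and 11 of the 686 were so in both lines. A difference below -1, as MT1A, MT1B, MT1E and MT1L had, was thus met more often among genes of like brightness in HN30 than in HN4.

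Around the brightness of MT1F and MT1X, 1919 other genes had a median difference of -0.06 in HN4 and -0.40 in HN30, with quartiles in HN30 of -0.96 and 0.16. MT1F in HN30/DDP, at 0.69, was above the upper quartile of these genes, and MT1X, at 0.17, was near it. With the trend of the difference with brightness taken off, an alternative chosen after seeing the data, MT1F was at 1.11 and MT1X at 0.61 in HN30/DDP, and the median of the members was -0.73 in HN30 and -1.27 in HN4. The part of the brightness trend in the lower signals of the members was not tested.

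**Figure D3:**
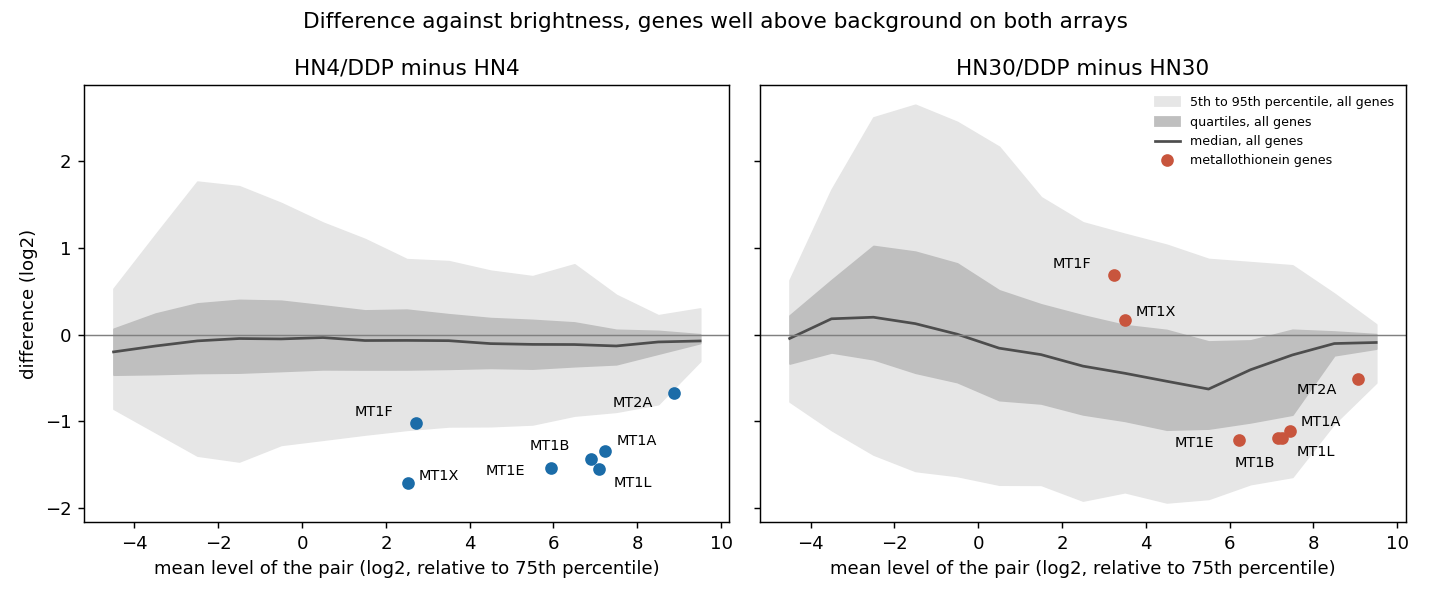
Difference of the resistant from the parental line (log2) against the mean level of the pair, for genes well above background on both arrays; grey bands give the quartiles and the range from the 5th to the 95th percentile of all genes in steps of 1 of the mean level, and points are the metallothionein genes. In HN4, MT1X (-1.71), MT1A, MT1B, MT1E and MT1L lie below the range from the 5th to the 95th percentile, and in HN30 the 7 members lie within that range, MT1A, MT1B, MT1E, MT1L and MT2A below the lower quartile.

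Between the lines, the members were near each other in the parental state. HN30 minus HN4 was 0.09 for MT1A, 0.14 for MT1B, 0.14 for MT1E, -0.01 for MT1L, 0.03 for MT1X and 0.10 for MT2A, each under its scanner SD of 0.20, and -0.34 for MT1F. With median scaling the first 6 ran from 0.09 to 0.25. HN30/DDP minus HN4/DDP was 0.26 for MT2A, 0.31 for MT1A, 0.34 for MT1L, 0.39 for MT1B and 0.46 for MT1E, all above the scanner SD of 0.20. It was 1.37 for MT1F and 1.92 for MT1X. These directions rest in part on the scaling: with median scaling MT2A (-0.10), MT1A (-0.04) and MT1L (-0.01) turned negative, MT1B (0.03) and MT1E (0.10) were near 0, and MT1F (1.01) and MT1X (1.56) were above it. With quantile normalization the gaps were 0.51 for MT1A, 0.63 for MT1B, 0.80 for MT1E, 0.55 for MT1L and 0.23 for MT2A. The change in HN30 minus that in HN4 was 1.71 for MT1F and 1.88 for MT1X (scanner SD 0.29 each), and from 0.16 for MT2A to 0.36 for MT1L among the others. With median scaling the 5 others turned negative, from -0.30 to -0.10, and with quantile normalization they ran from 0.26 for MT2A to 0.78 for MT1E, while MT1F had 1.25 and 2.03 and MT1X 1.43 and 2.23. With 1 array per state these differences between the lines were not tested.

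The only replicated contrast took the 2 lines as replicates, with the cell line as a block and 1 residual degree of freedom. Among 29521 genes, limma with Benjamini-Hochberg adjustment called 0 (0%) at an adjusted p of 0.05, and 2537 genes had an unadjusted p under 0.05. None of the 8 members tested was called. For MT1L the estimate was -1.37 (SE 0.24, lower in 2 of 2 lines) with a limma adjusted p of 0.441, and for MT2A -0.59 (SE 0.17, lower in 2 of 2 lines) with 0.510. MT1A (-1.23), MT1B (-1.31) and MT1E (-1.38) were also lower in both lines, with limma adjusted p of 0.445, 0.445 and 0.463. These 5 genes had an unadjusted p under 0.05 and a negative estimate, as had 3.31% of all genes. With a gene's probes averaged, MT1E had an estimate of -0.23 (limma adjusted p 0.899) and differences of -0.57 in HN4 and 0.10 in HN30. In that fit 4 of the 8 members had an unadjusted limma p under 0.05, as had 2338 of the 29521 genes. The count of members was also 4 with median scaling and with dim signals at the floor, beside 3011 and 2010 genes. MT1F had -0.17 (SE 0.56) and MT1X -0.77 (SE 0.59), with limma adjusted p of 0.952 and 0.775, and no estimate is given for MT1G, which was dim on 3 of the 4 arrays.

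**Figure D4:**
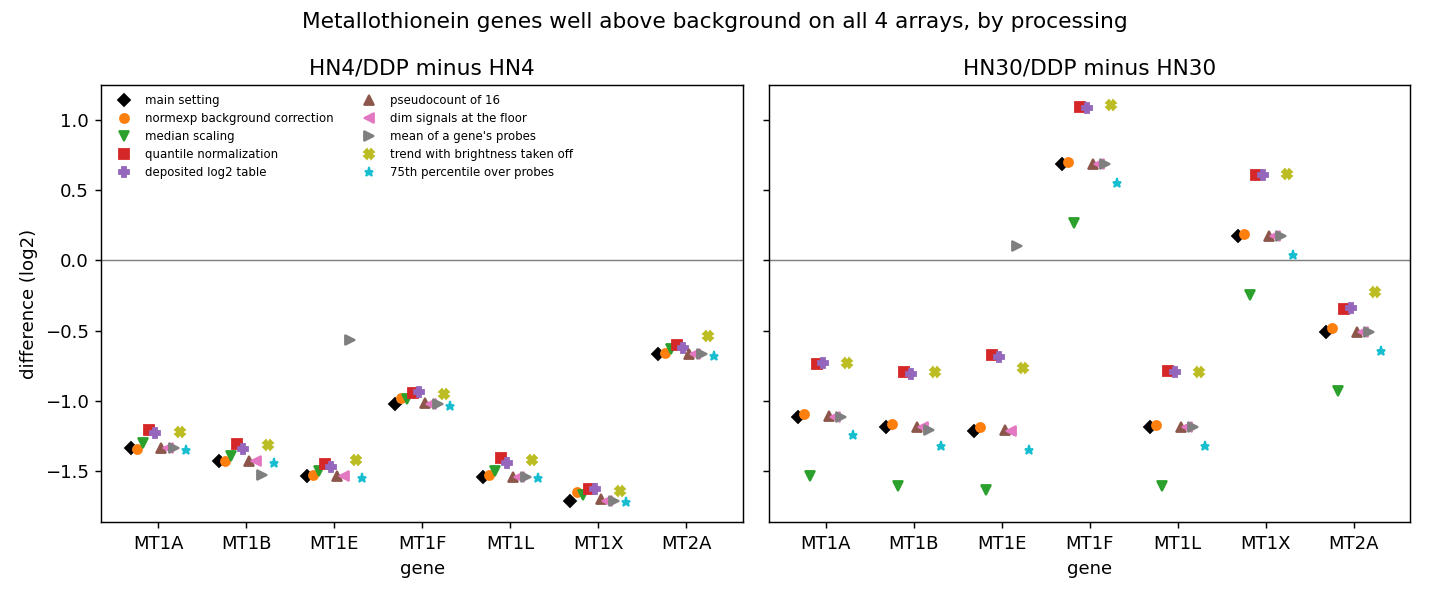
Difference of the resistant from the parental line (log2) for the 7 metallothionein genes well above background on all 4 arrays, under the main setting (black) and 9 alternatives. In HN4 all values are negative, while in HN30 the values of MT1A run from -1.53 to -0.73, MT1F stays above 0 in each, MT1X changes sign with median scaling, and MT1E changes sign when its 3 probes are averaged.

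Of 12 other metallothionein genes and pseudogenes looked for, 5 were on the array by name, and over the 3 of them well above background on both arrays of each line, MT3, MT1HL1 and MT1IP, the median was -0.25 in HN4 and -0.08 in HN30. MT1HL1, whose probe is also listed for MT1H, had levels of 7.16 in HN4 and 5.62 in HN4/DDP, and 7.24 in HN30 and 5.97 in HN30/DDP. Its differences were -1.53 in HN4 and -1.27 in HN30. The pseudogene MT1CP, matched by its description and not by name, is left out of those medians. It was well above background on all 4 arrays, 3.64-fold lower in HN4/DDP (difference -1.86) and 2.69-fold lower in HN30/DDP (difference -1.43). MT3, the metallothionein of the nervous system, differed by -0.20 and -0.08, at or under its scanner SD of 0.20. The pseudogene MT1IP differed by -0.25 in HN4 and 0.24 in HN30, each under its scanner SD of 0.28. MT4, a gene of stratified epithelia, was not well above background in HN4, HN30 and HN30/DDP and was at least 2.10-fold higher in HN4/DDP. The pseudogene MT1DP was well above background in HN30/DDP alone, at least 2.25-fold above HN30.

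MTF1, the factor that zinc turns on to drive metallothionein genes, had levels of 0.95 in HN4 and 0.64 in HN4/DDP, and 0.79 in HN30 and 0.64 in HN30/DDP. Its difference was -0.31 in HN4 and -0.15 in HN30 (scanner SD 0.20 each). Of MTF1 and its partners SP1, USF1 and EP300, 0 of 4 passed a difference of 1 in either line, and the medians were -0.26 and -0.21. Of all genes, 9.31% were higher and 8.65% lower by more than 1 in HN4, and 19.8% and 13.3% in HN30. EP300 differed by -0.53 in HN4 and 0.37 in HN30, and SP1 by -0.32 in HN30. SLC30A1, a zinc exporter of the plasma membrane that MTF1 also drives, had levels of 0.58 in HN4 and 1.58 in HN4/DDP, and 0.96 in HN30 and 0.38 in HN30/DDP. Its difference was 1.00 after rounding, just under that threshold, in HN4 and -0.58 in HN30.

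Among zinc exporters (SLC30A family), 0 of 8 were past 1 in HN4, beside 9.31% of all genes higher and 8.65% lower. In HN30 2 of 9 were higher and 2 lower by more than 1, beside 19.8% and 13.3% of all genes. With both arrays well above background, the differences ran from -0.55 (SLC30A3) to 1.00 (SLC30A1) in HN4 and from -1.71 (SLC30A6) to 1.59 (SLC30A3) in HN30, and the medians were -0.04 and -0.38. Of 13 zinc importers (SLC39A family), 9 were below 0 in HN4 and 10 in HN30, beside 55.9% and 47.1% of all genes, with medians of -0.41 and -0.69. These shares were not matched for brightness. Among genes well above background on both HN30 arrays, the median was 0.20 at mean levels of -3 to -2 and -0.54 at 4 to 5. SLC39A14 had the lowest difference in HN4, -1.11, and SLC39A8, which also takes up cadmium, in HN30, -1.49. SLC39A2 was at least 2.80-fold higher in HN4/DDP, while SLC39A13 differed by 0.45 in HN4 and SLC39A5 by 0.40 in HN30. Of 8 copper genes, ATP7B, a copper pump of the secretory pathway, differed by 1.40 in HN4 and 2.09 in HN30, SLC31A2 by -1.45 in HN4 and COX17 by -0.87 in HN30, with list medians of 0.31 and -0.46.

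Stress genes that metals induce were examined beside the members. HMOX1, which degrades haem, differed by 2.72 in HN4 (scanner SD 0.07) and 0.52 in HN30. The value in HN4 was the highest of 13 stress genes there. HSPH1, a chaperone, had the lowest difference of the list in both lines, -1.18 and -1.87, GCLM differed by 0.83 in HN30, and the list medians were 0.17 and -0.20. Of 8 glucocorticoid-response genes in HN30/DDP, TSC22D3 (2.19) and KLF9 (2.94) were past 2 upwards and SGK1 (-2.05) downwards. Of all genes, 8.37% were past 2 upwards there and 2.75% downwards. The median of the 8 genes was 0.58. In HN4/DDP 0 of 8 were past 2, beside 3.61% of all genes higher and 2.2% lower. The median of the 8 there was -0.25, DUSP1 differed by 1.34, and the receptor gene NR3C1 by -1.10. The neighbours of the cluster on 16q13 had medians of 0.19 and -0.19, with 0 of 10 past 2 in either line. Past 2 were 3.61% of all genes upwards and 2.2% downwards in HN4, and 8.37% and 2.75% in HN30. With both arrays of the line well above background, the extremes were CES1 (0.99) and GNAO1 (-0.82) in HN4, and BBS2 (1.30) and OGFOD1 (-1.39) in HN30.

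The 5 genes outside the metallothioneins whose levels were most like those of MT2A over the 4 arrays, each centred on its own mean, were USP24, SLC6A10P, CHST14, ENST00000375713 and XLOC_l2_013415. Their Euclidean distances to MT2A ran from 0.01 to 0.04 (log2), among 22139 genes. By the same measure MT1A lay at 0.64 from MT2A, with 6937 other genes closer, and MT1X at 1.19, with 16158 closer.

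Promoters of members are shown because MTF1 binds metal response elements, whose core is TGCACNC or TGCGCNC. RefSeq promoters (GRCh38.p14, 250 bases before to 50 after the start) were matched for 4 members, MT1B, MT1H, MT1X and MT2A, and for MT4. Of all 35116 promoters, 12.1% held TGCACNC on either strand, 20.0% held TGCGCNC and 29.6% held either. Capitals mark matches on both strands in the 250 bases before the start of MT2A (GRCh38.p14 chr16:56608334-56608583), MT1X (chr16:56682220-56682469) and MT1B (chr16:56651636-56651885), all on the plus strand.
MT2A: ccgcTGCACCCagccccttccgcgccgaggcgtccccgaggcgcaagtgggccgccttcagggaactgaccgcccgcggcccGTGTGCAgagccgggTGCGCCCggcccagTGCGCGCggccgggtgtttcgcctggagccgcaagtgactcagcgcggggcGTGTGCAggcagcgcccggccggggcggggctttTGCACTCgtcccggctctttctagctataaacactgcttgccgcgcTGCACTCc
MT1X: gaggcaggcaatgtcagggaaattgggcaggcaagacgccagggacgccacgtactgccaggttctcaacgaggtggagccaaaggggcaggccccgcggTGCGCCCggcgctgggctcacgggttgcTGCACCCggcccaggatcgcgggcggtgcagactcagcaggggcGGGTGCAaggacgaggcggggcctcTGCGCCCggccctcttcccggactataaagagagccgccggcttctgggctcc
MT1B: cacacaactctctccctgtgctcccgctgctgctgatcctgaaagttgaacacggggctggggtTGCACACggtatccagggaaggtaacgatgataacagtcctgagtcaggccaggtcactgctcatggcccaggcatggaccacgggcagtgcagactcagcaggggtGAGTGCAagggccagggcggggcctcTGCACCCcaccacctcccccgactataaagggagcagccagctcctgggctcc

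Over its 300 bases MT2A had 8 matches, MT1H 8, MT1X 4, MT1B 3 and MT4 3. At least 8 matches were found in 0.0199% of all promoters, at least 4 in 0.601% and at least 3 in 2.30%. A match describes letters and is not a site of binding.

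Among markers of other cell types, COL1A1, a collagen of fibroblasts, differed by 1.73 in HN4 and 2.43 in HN30, higher on both resistant arrays. It and PDGFRB, which differed by -0.01 and 0.63, were the 2 of 6 fibroblast markers well above background, while COL1A2, COL3A1, LUM and DCN were not well above background on any of the 4. The summed signal of the fibroblast list was 195 in HN4 and 510 in HN4/DDP, and 99.5 in HN30 and 370 in HN30/DDP. Of the blood markers, PTPRC differed by -0.10 and 0.16, and CD3E was well above background on the HN30/DDP array alone. The summed endothelial signal was 127 in HN4 and 154 in HN4/DDP, and 95.8 in HN30 and 133 in HN30/DDP. Endothelial VWF was at least 5.37-fold higher in HN4/DDP, and differed by 1.49 in HN30. PECAM1 was at least 2.05-fold lower in HN4/DDP and at least 1.64-fold higher in HN30/DDP, and CDH5 differed by -0.62 in HN4 and -0.59 in HN30. Squamous keratins also moved: KRT5 differed by -4.05 and -1.93, KRT14 by 2.33 and KRT17 by 3.29 in HN4, KRT6A by 3.32 in HN4 and at least 183-fold downwards in HN30/DDP, and CDH1 by 1.34 in HN30, with list medians of 0.36 and -0.13. The part of these changes in the metallothionein signals was not tested.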

How the data were processed

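RNA of 4 cell lines was measured on 4 one-colour Agilent arrays. The authors deposited scanner output made by Agilent Feature Extraction 10.7.1.1, with a background-subtracted processed intensity per spot, other columns that flag spots (well above background, outlier, saturated), and probe coordinates on hg19. A log2 table from the authors, with 58341 entries and a median of 4.65 on each array, was deposited too. Its sorted values are the same on every array, as quantile normalization leaves them; its other steps are not stated. It was used as an alternative: its differences correlated with those computed here across 35058 probes in HN4 (r = 0.9989) and 37054 in HN30 (r = 0.9686); probes are not independent replicates.

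Here, log2 of the processed intensity minus the array's 75th percentile over the 60901 spots of non-control probes was taken, outlier spots were left out, and spots of a probe were averaged. The 75th percentile was 494 in HN4 and 496 in HN4/DDP, and 444 in HN30 and 480 in HN30/DDP, and 57.2%, 59.0%, 55.3% and 63.6% of spots were well above background. For a gene, the probe of highest mean stood in. Higher required a signal well above background on the resistant array, lower on the parental array. For a bound, the dim array took the higher of the probe's own level and the lowest level well above background, -4.76, -4.99, -4.63 and -4.94 in the same order. No bound allows for spot error. The cell lines' contrast used limma 3.58.1 (R 4.3.3, lmFit, eBayes with a trend, Benjamini-Hochberg) on the 29521 genes that 1 or more arrays showed well above background. Other steps used Python 3.11.15, numpy 2.4.6, pandas 2.3.3, statsmodels 0.14.6 and matplotlib 3.10.9.

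The members and lists were chosen with earlier results of these data known. Lists were other metallothioneins, MTF1 and partners, zinc exporters and importers, copper handling, glucocorticoid response, metal-induced stress, 16q13 neighbours, and squamous, fibroblast, blood and endothelial markers. All members were named; from each list, those past a difference of 2 in either line, MTF1, SLC30A1, and the highest and lowest difference in each line, where both arrays were well above background. Likeness to MT2A was the Euclidean distance over the 4 centred levels. All 10 members matched the RefSeq table of GRCh38.p14 by accession. Probes were aligned without gaps over at least 30 bases. Alternatives were normexp with an offset of 50, median and quantile scaling, the deposited table, a pseudocount of 16, dim signals at the floor, filters, averaged probes, and, chosen after seeing the data, the brightness trend (lowess, fraction 0.3) and the percentile over probes.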

Additional observations from a re-analysis of the deposited data

Results flagged for a closer look

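The lines went opposite ways for 3 metallothioneins well above background on all 4 arrays, each line being represented by 1 pair of arrays. For MT1F the difference in HN30 (0.69) exceeded that in HN4 (-1.02) by 1.71. For MT1X (0.17 against -1.71) it exceeded it by 1.88, although the value in HN30 was under its scanner SD of 0.20 and turned negative under median scaling. For the pseudogene MT1IP (0.24 against -0.25) the gap was 0.48, with both differences under their scanner SD of 0.28. None of these gaps was tested.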

How the results depend on the processing

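The cell line paired the arrays in the limma fit; without that block limma also called 0 genes, with 3261 at an unadjusted p under 0.05. In HN4, the median of the members ran from -1.43 to -1.18 over all alternatives. In HN30 it moved from -1.11 to -1.53 with median scaling, -0.68 with quantile normalization, -0.69 with the deposited table, -0.51 with a gene's probes averaged and -0.73 with the brightness trend taken off, an alternative chosen after seeing the data, as was the percentile over probes. The cause was not tested, except that averaging brings in the dim MT1E probes, which turned MT1E in HN30 to 0.10. Members past a difference of 2 in HN4/DDP went from 1 to 0 with normexp, the pseudocount, dim signals at the floor, or the filter on both arrays, all of which act on the dim MT1G, and to 7 with a threshold of 1. Of these 7, 6 were lower and 1, MT1G, was higher, and with normexp or dim signals at the floor 0 were higher at that threshold. In HN30/DDP that threshold gave 4 in place of 0, all lower, but 1, MT1F, higher, with quantile normalization, the deposited table or the brightness trend taken off, and 3, all lower, with a gene's probes averaged.

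The limma count of 0 became 297 (242 higher, 55 lower, 0 of them members) with median scaling and was 0 in the other fits, where 1957 to 3261 genes had an unadjusted p under 0.05. Over these fits the lowest limma adjusted p of a member ran from 0.254 to 0.699. MT1F (-0.17) turned to 0.0743 with quantile normalization and 0.0762 with the deposited table. With 1 line left out, it ran from -1.02 to 0.69, and MT1X from -1.71 to 0.17, values with no test. Of 135 values of single members within a line, 104 moved by less than the scanner SD, 30 by more, and 1, the MT1E value above, reversed; MT1X in HN30, at first within its scanner SD (0.17), was among the 30, at -0.25 with median scaling. Median scaling moved the median of all genes in HN30 by -0.42, and the share of higher among all genes past 2 there from 75.3% to 50.2%; with normexp 557 were higher and 371 lower. Dim signals limit MT1G, MT1H and MT1M.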
